A study of Mus musculus with 6 samples.

Results

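The 6 small RNAs described here carry the array names mmu-miR-720_v18.0, mmu-miR-1224-5p, mmu-miR-494-3p, mmu-miR-689, mmu-miR-690 and mmu-miR-714, out of 566 mouse miRNAs on the array, and are written below without the species prefix (the array adds a version suffix to miR-689 as well). They were chosen by name after an earlier look at the same arrays, for a signal that was uneven between arrays of one condition and that differed between culture conditions. Their values are therefore given as a description with no p-value, and counts of calls that include them are no test of them. LLC1 is a mouse line established from a Lewis lung carcinoma. It was grown for 48 h in DMEM with serum, either as a 2D monolayer (the control) or embedded in 0.5 mg/ml Geltrex, a laminin rich extracellular matrix (lr-ECM 3D), over agarose that keeps cells off the plastic. Each condition had 3 independent replicates, and 100 ng of total RNA of each was labelled with Cy3 and hybridised to 1 array. Both conditions model 1 established line without the host cells of a tumour, and in such a bulk extract fewer cells that make an RNA cannot be told apart from less of it per cell.

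The array measured the 6 small RNAs with 16 of its 1672 mouse probes. Detection of a probe meant that 50% or more of its spots on that array carried the flag for well above background, and each small RNA was read from its brightest probe. All 6 were detected on 5 arrays, and on 2D replicate 2 only miR-720, miR-1224-5p and miR-494-3p were. The mean signal over all miRNA probes was 5.03 linear scanner units on 2D replicate 2 and 21.4 to 49.9 on the other arrays, with 48 mouse miRNAs detected on 2D replicate 2 and 75 to 151 on the others. The conditions lay on separate slides with separate scans, 2 slides in all, so slide, scan and culture cannot be told apart wherever conditions are compared. Of miRNAs that mark cell types, 0 of 10 epithelial (the miR-200 family among them), 0 of 2 endothelial, 0 of 1 liver and 0 of 4 neuronal arms were detected on any array, while 2 of 6 blood cell arms were, miR-142a-3p on all 6 arrays and miR-142a-5p on 4. Of 5 muscle arms 1 was detected, miR-206-3p, on 1 lr-ECM 3D array.

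A miRNA is cut from a hairpin and then guides the silencing complex to mRNAs that pair with its seed, the bases 2 to 8 from its 5′ end. The 6 names do not all stand for such RNAs. The sequence called miR-720 is a fragment of a transfer RNA, and the name was later withdrawn from the miRNA registry. MiR-1224 is a mirtron, a miRNA whose hairpin is a whole small intron released by splicing, so that it bypasses the nuclear enzyme Drosha. MiR-494 lies in the large imprinted miRNA cluster of the Dlk1-Dio3 region, which is expressed from the maternal chromosome. MiR-689, miR-690 and miR-714 were named in an early survey of mouse small RNAs.

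The mature sequences of 3 of the 6 were matched by name in RefSeq (GRCm38.p6). They are shown so that their seeds and base composition can be compared. Capitals mark the seed.
miR-1224-5p: gUGAGGACuggggagguggag
miR-494-3p: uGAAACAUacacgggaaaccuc
miR-690: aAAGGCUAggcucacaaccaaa
MiR-1224-5p lies at chr16:20604452-20604472 on the plus strand, within the span of the protein coding gene Vwa5b2. MiR-494-3p lies at chr12:109715367-109715388 on the plus strand, within the span of no other gene of that annotation and with 39 other miRNA genes within 50000 bases. MiR-690 lies at chr16:28599940-28599961 on the minus strand, within the span of the protein coding gene Fgf12. The 3 seeds differed from each other, and none was shared with any other of the 471 mouse miRNAs on the array that have a sequence. The sequences also differed in composition. MiR-1224-5p, of 21 bases, was 61.9% G, above the range of 4.55% to 47.8% (median 26.1%) in 61 other miRNAs with a sequence that were detected on the same 5 arrays, whereas miR-494-3p and miR-690, of 22 bases, were each 18.2% G. The motif GGG, read on the strand of the mature RNA, was present in miR-1224-5p and miR-494-3p and in 114 (24.2%) of the 471, and it was not in miR-690. Across the 61 other miRNAs, which share arrays and labelling, the percent G had a Spearman rho of -0.10 with the log2 difference between 2D replicates 3 and 1 and of -0.10 with the log2 difference between lr-ECM 3D and 2D replicates 1 and 3. The length of the longest run of G had a rho of -0.06 with the first difference and of -0.31 with the second, in 61 miRNAs and as a description only.

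The hairpin of miR-1224 is shown because it is the only one of the 3 that is an intron. Capitals mark its first and last dinucleotide.
miR-1224 hairpin: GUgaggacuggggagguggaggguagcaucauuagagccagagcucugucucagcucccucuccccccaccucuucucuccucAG
It spans 85 bases (chr16:20604452-20604536, plus strand). The mature 5p arm starts at base 1, on the GU, and the 3p arm ends at base 85, on the AG, so that the measured RNA has the first bases of the intron as its own 5′ end.

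The signal of miR-720, before any scaling between arrays, was 6164 linear scanner units on 2D replicate 1, 1798 on replicate 2 and 8387 on replicate 3, and it was 9335, 7722 and 7666 on the lr-ECM 3D replicates in the same order. It was the brightest mouse miRNA probe on each of the 6 arrays. Scanner signal depends on the probe as well as on the amount of RNA, so an order of signals is not an order of molecules. The signal of miR-1224-5p, the mirtron arm, was 2307, 119 and 2188 units in 2D and 1616, 1442 and 1284 in lr-ECM 3D. That of miR-494-3p, the Dlk1-Dio3 miRNA, was 924, 62.0 and 1062 units in 2D and 623, 561 and 492 in lr-ECM 3D. Unlike miR-720, both had their 3 lr-ECM 3D arrays between the dim 2D replicate 2 and the bright 2D replicates 1 and 3.

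The 3 dimmer RNAs had their lr-ECM 3D arrays in the same place. MiR-689 measured 252, 15.7 and 262 units in 2D and 185, 173 and 160 in lr-ECM 3D. MiR-690 measured 182, 7.37 and 272 units in 2D and 168, 139 and 126.04 in lr-ECM 3D. MiR-714 measured 61.8, -1.68 and 89.4 units in 2D and 38.5, 35.1 and 34.6 in lr-ECM 3D, the negative value being below the subtracted background. On 2D replicate 2 these 3 were not well above background, where the lowest signal of a detected miRNA was 30.4 units. Not all 6 were bright. By mean scaled signal over the 6 arrays miR-720 stood at place 1 of the 566 mouse miRNAs, miR-1224-5p at 4, miR-494-3p at 15, miR-689 at 45, miR-690 at 52 and miR-714 at 101.

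**Figure D1:**
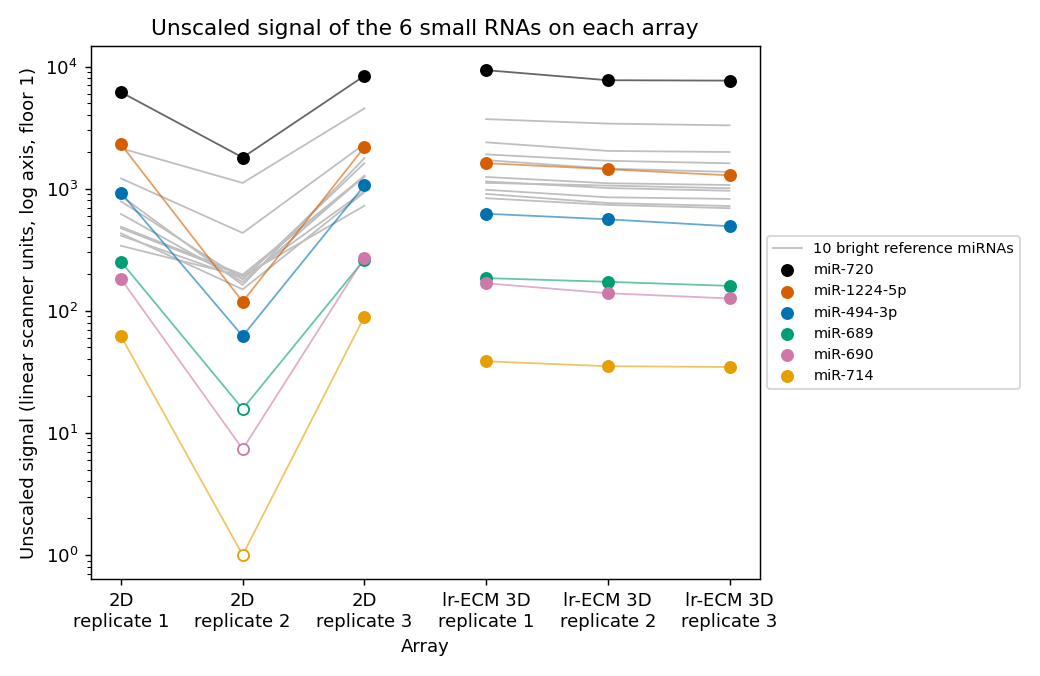
Unscaled signal (linear scanner units on a log axis, floored at 1) of the 6 small RNAs and of 10 bright reference miRNAs (grey) on the 3 2D and 3 lr-ECM 3D arrays, with lines joining the values of 1 RNA and open circles where it was not well above background. On 2D replicate 2 miR-1224-5p at 119 and miR-494-3p at 62.0 units lie below all 10 grey lines, the lowest of which is at 150 units there, and on 2D replicate 1 miR-1224-5p at 2307 lies above all of them.

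The 6 RNAs together made up 35.7% of the summed mouse miRNA signal on 2D replicate 1, 22.3% on replicate 2 and 25.0% on replicate 3, which averages to 27.7% ± 7.09 (SD, n = 3). In lr-ECM 3D the share was 21.97%, 22.4% and 22.4%, which averages to 22.2% ± 0.239 (SD, n = 3). Thus the share was nearly level in lr-ECM 3D and varied widely in 2D, and the ranges of the groups overlapped. Most of the share was miR-720, which held 22.3%, 20.04% and 17.1% in 2D and 17.1%, 17.2% and 17.6% in lr-ECM 3D. The other 5 held 13.5%, 2.27% and 7.90% in 2D and 4.83%, 5.22% and 4.81% in lr-ECM 3D. These shares need no factor between arrays, but on the dim 2D replicate 2 they include signals not well above background (miR-714 counted as 0). With normexp background correction the difference in the share of the 6, -5.43 percentage points, turned to 1.11. That correction adds an offset of 50 units to each signal in the sum. Without it the summed signal was 8970 units on 2D replicate 2 and 27696 to 54453 on the other arrays. The offset therefore weighs most on 2D replicate 2, and the turn in sign cannot be read as an effect of background.

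A second measure that no array factor changes was the log2 ratio of each RNA to the geometric mean of 10 bright reference miRNAs on the same array, among them miR-21a-5p, miR-125b-5p, miR-29a-3p and let-7a-5p, the brightest miRNAs outside the 6. The log2 ratio of miR-1224-5p was 1.81, -0.98 and 0.60 in 2D (replicates in number order here and below) and 0.18, 0.20 and 0.10 in lr-ECM 3D. That of miR-494-3p was 0.49, -1.91 and -0.44 in 2D and -1.19, -1.16 and -1.29 in lr-ECM 3D. For both, the lr-ECM 3D arrays lay below 2D replicates 1 and 3 and above 2D replicate 2. The log2 ratio of miR-720 was 3.23, 2.94 and 2.54 in 2D and 2.71, 2.62 and 2.68 in lr-ECM 3D, so its lr-ECM 3D arrays lay between 2D replicates 3 and 2.

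For miR-689 the log2 ratio was -1.38, -3.90 and -2.46 in 2D and -2.94, -2.86 and -2.91 in lr-ECM 3D. For miR-690 it was -1.86, -4.99 and -2.41 in 2D and -3.08, -3.17 and -3.25 in lr-ECM 3D. For miR-714 it was -3.41, -7.87 and -4.01 in 2D and -5.21, -5.16 and -5.12 in lr-ECM 3D, with the 2D replicate 2 value set by the floor of 1. These 3 thus lay below 2D replicates 1 and 3 in lr-ECM 3D as well. The spread in lr-ECM 3D was small for all 6, with a range of 0.08 to 0.17 over 3 arrays, against 0.69 (miR-720) to 4.46 (miR-714) in 2D. The groups overlapped in this ratio for all 6 small RNAs, and over the 120 tested miRNAs they did not overlap for 53 (44.2%). That share is not a like measure for the 6. Some of the 120 passed the detection filter through the lr-ECM 3D arrays alone, which favours groups that lie apart. On all arrays but 2D replicate 2, 75 mouse miRNAs were detected, the 6 among them.

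**Figure D2:**
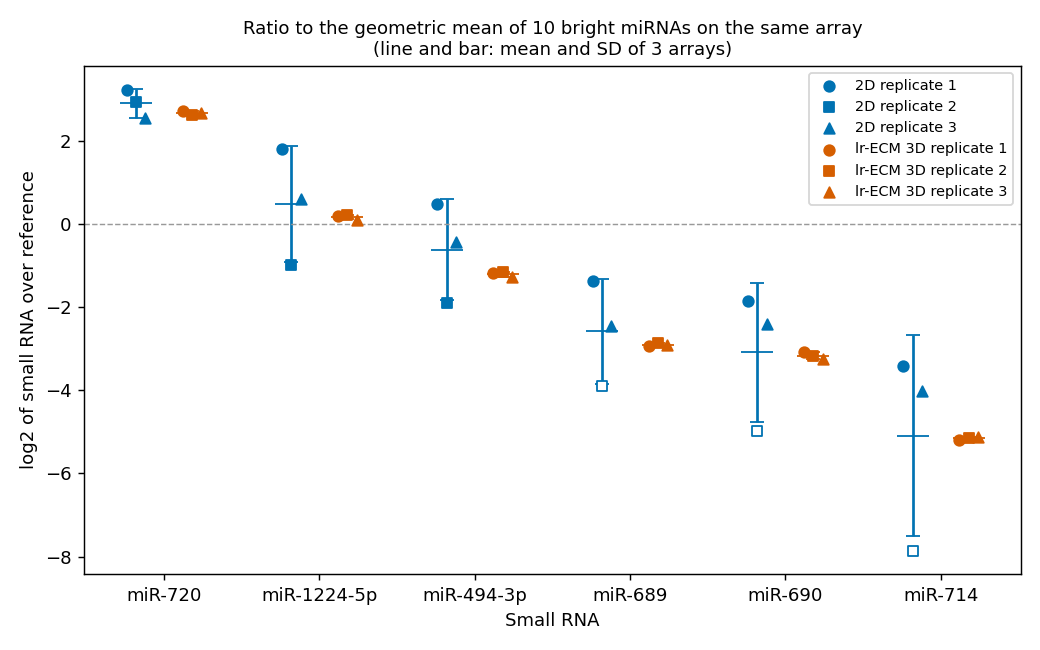
Log2 ratio of each small RNA to the geometric mean of 10 bright reference miRNAs on the same array, with 1 symbol per array, the mean as a line and the SD over 3 arrays as a bar (open symbols, not well above background). The lr-ECM 3D symbols (orange) span 0.08 to 0.17 per RNA and the 2D symbols (blue) 0.69 to 4.46. Heights of different RNAs are not levels relative to each other, since probes differ.

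The difference of this log2 ratio, lr-ECM 3D minus 2D, was -0.23 for miR-720, -0.31 for miR-1224-5p, -0.59 for miR-494-3p, -0.32 for miR-689, -0.08 for miR-690 and -0.06 for miR-714. Each of these lay within the SD of the 2D arrays, which ran from 0.35 (miR-720) to 2.42 (miR-714). Without 2D replicate 2 the differences of the last 5 grew to -1.04, -1.24, -0.98, -1.04 and -1.45, while that of miR-720 was -0.21. Thus the dimmest 2D array decided their size, and without 2D replicate 1 the median over the 6 was 0.31, above 0.

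Within the 2D condition the fold between arrays was compared with that of the reference miRNAs. On 2D replicate 3 the 10 reference miRNAs had 1.91-fold to 2.63-fold the unscaled signal they had on 2D replicate 1. The fold over the same 2 arrays was 0.949 for miR-1224-5p, 1.04 for miR-689, 1.15 for miR-494-3p, 1.36 for miR-720, 1.45 for miR-714 and 1.49 for miR-690. All 6 were therefore under the reference range, which is not particular to them. MiR-24-3p, for example, had a log2 difference of 0.78, against 0.93 for miR-125b-5p, the lowest of the reference miRNAs. Of the 69 other miRNAs detected on the same 5 arrays, 1 had a lower log2 difference than miR-1224-5p. This was miR-188-5p, with -0.08, against a median of 1.04. Of the 69, 1 was also lower than miR-494-3p and miR-689, 2 than miR-720 and miR-714, and 4 than miR-690. Uneven signal within a condition was among the reasons for choosing the 6, so these places describe the choice.

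Between 2D replicate 2 and the other 2D arrays the 6 RNAs separated. The signal of miR-720 was 3.43-fold higher on 2D replicate 1 and 4.66-fold higher on 2D replicate 3 than on 2D replicate 2, within the ranges of the reference miRNAs, 1.77-fold to 5.37-fold and 3.77-fold to 10.9-fold. MiR-1224-5p was 19.5-fold and 18.5-fold higher on the same arrays. MiR-494-3p was 14.9-fold and 17.1-fold higher. Both miRNAs were thus above the reference range in each of these comparisons. For RNAs not well above background on 2D replicate 2 a bound was set against its lowest detected signal. MiR-689 was at least 8.30-fold higher on 2D replicate 1 and at least 8.63-fold higher on 2D replicate 3, miR-690 at least 5.99-fold and 8.94-fold, and miR-714 at least 2.03-fold and 2.94-fold.

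Read on the log2 scale of unscaled signal, 2D replicate 2 minus the mean of 2D replicates 1 and 3 was -4.24 for miR-1224-5p, -3.997 for miR-494-3p and -1.9997 for miR-720. The 45 other miRNAs detected on all 6 arrays ran from -2.94 to -1.30, with a median of -2.05. The mirtron arm and the Dlk1-Dio3 miRNA lay below that range and miR-720 near its middle. The range leaves out miRNAs that were not detected on 2D replicate 2, and among these miR-202-3p had -4.19 and miR-188-5p -4.003, as low as miR-494-3p.

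The same unscaled values set the lr-ECM 3D arrays against 2D replicates 1 and 3. The log2 difference was 0.19 for miR-720. It was -0.64 for miR-1224-5p, -0.83 for miR-494-3p, -0.58 for miR-689, -0.63 for miR-690 and -1.04 for miR-714. The 69 other miRNAs detected on these 5 arrays ran from -0.13 (miR-202-3p) to 2.43 (miR-574-5p, named here after its value was seen), with a median of 0.42. Thus 0 of the 69 were as low as any of the 5, and 9 were lower than miR-720. This contrast is among the values that chose the RNAs, so their place outside the range is a description of the choice.

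**Figure D3:**
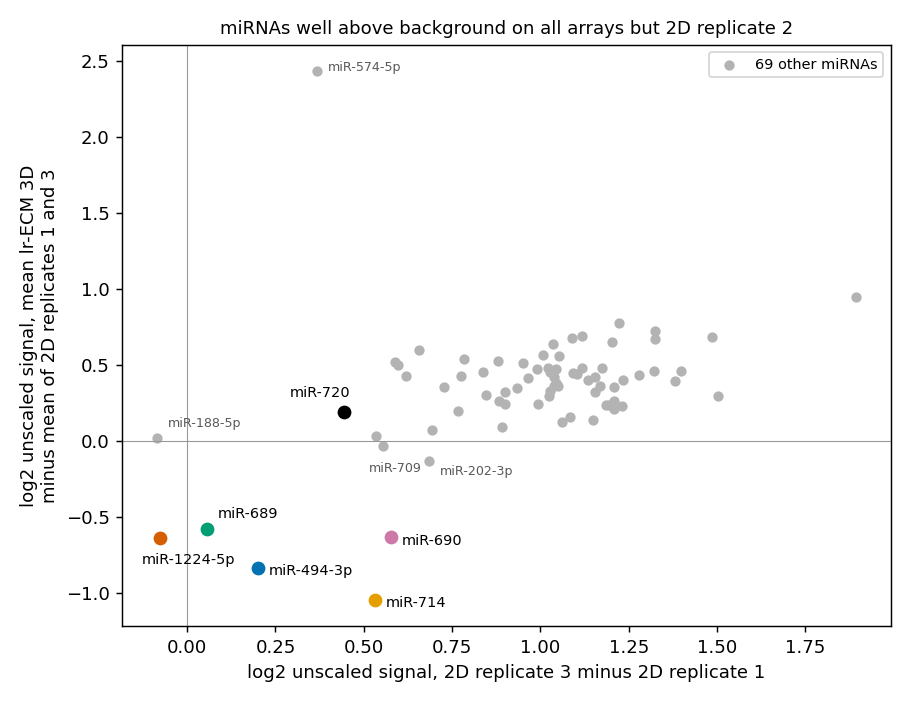
Each point is 1 of 75 miRNAs detected on all arrays but 2D replicate 2, with the log2 difference in unscaled signal between 2D replicates 3 and 1 on the x axis and between the lr-ECM 3D mean and the mean of 2D replicates 1 and 3 on the y axis. The other 5 small RNAs lie between -1.04 and -0.58 on the y axis, below all 69 grey points, while miR-720 at 0.19 lies among these.

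How far the 6 moved together was measured as the SD over arrays of the log2 ratio between each pair, which no array factor changes and which is 0 for RNAs in a fixed ratio. Over the 6 arrays the 15 pairs had a median SD of 0.76, against 0.22 for the 990 pairs of other miRNAs detected on all 6. Over the 5 arrays without 2D replicate 2 it was 0.24, so that this array, on which 3 of the RNAs were not detected, decided the value. Within lr-ECM 3D the median was 0.08, against 0.07 for 2346 pairs of other miRNAs.

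Over the 5 arrays, each read from its brightest probe, the 6 RNAs fell into miR-720 on one side and the other 5 on the other. The second probe of miR-720 had a log2 difference between 2D replicates 3 and 1 of 0.07, against 0.44 for the brightest. That second probe was not used in these pairs. Pairs of the 5 had an SD of 0.07 to 0.32, with a median of 0.19, close to the 0.18 of pairs of other miRNAs. The closest pair was miR-1224-5p with miR-689, at 0.07. The same 5 paired with the 10 reference miRNAs had an SD of 0.48 to 0.96, with a median of 0.71. MiR-720 paired with the 5 had an SD of 0.45 to 0.68, and paired with the reference miRNAs a lower median of 0.27. Pairs among the 10 reference miRNAs had a median of 0.12 and at most 0.29, so miR-720 followed them less closely than they followed each other. These are SDs over few arrays that differ mainly in 2D, and the choice of the RNAs used the same arrays.

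**Figure D4:**
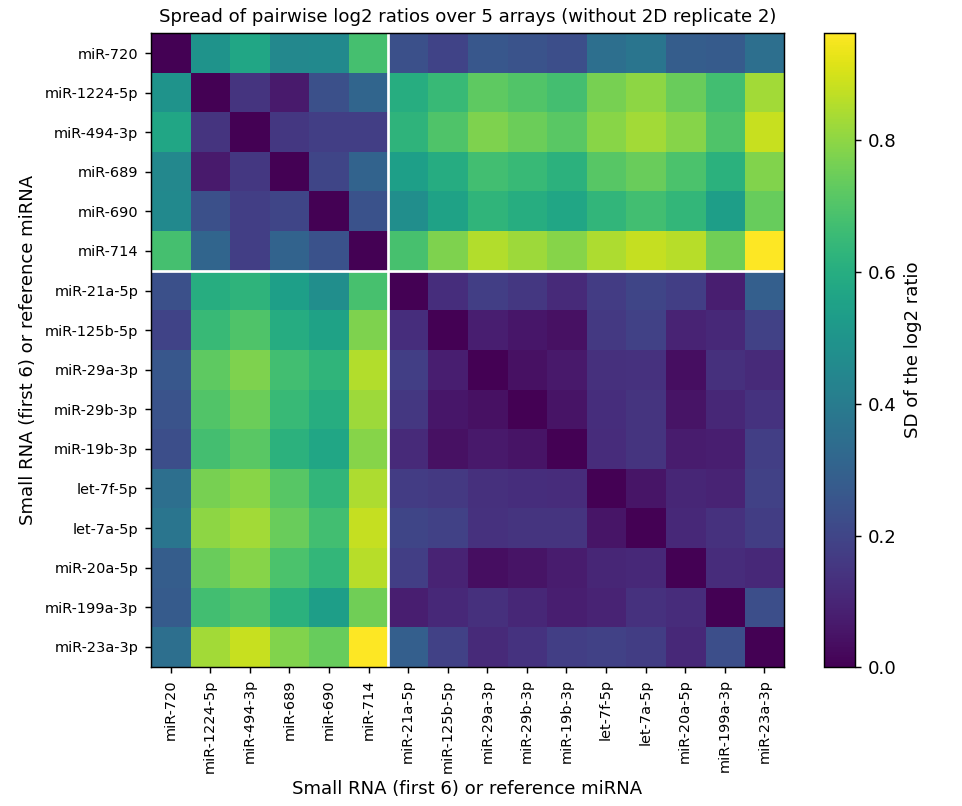
SD of the log2 ratio between pairs of small RNAs (first 6 rows and columns) and reference miRNAs (last 10) over the 5 arrays without 2D replicate 2, from 0 (dark) to 0.96 (bright). The 5 RNAs from miR-1224-5p to miR-714 form a dark block of 0.07 to 0.32 and a bright band of 0.48 to 0.96 with the reference miRNAs, while miR-720 is darker with the reference miRNAs than with the 5.

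The miRNAs outside the 6 with the most similar course were ranked by the same SD. Over all 6 arrays, among 45 candidates, miR-709, miR-7a-5p and miR-199a-5p came closest to miR-720, at 0.13, 0.14 and 0.15. For miR-1224-5p the closest was miR-31-5p at 0.66, for miR-494-3p miR-31-5p at 0.63 and for miR-689 miR-31-5p at 0.58. For miR-690 and miR-714 it was miR-29a-3p, at 0.78 and 1.23. None of these 45 came as close to these 5 as miR-709 did to miR-720. Candidates had to be detected on the dimmest 2D array, so miRNAs lost there, miR-202-3p and miR-188-5p among them, were left out beforehand. MiR-689, miR-690 and miR-714 were themselves not detected on that array, and miR-714 was set to the floor there. The order over all 6 arrays therefore cannot say whether any miRNA outside the 6 followed these 5.

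Over the 5 arrays without 2D replicate 2, an order chosen after the values were seen, the candidates were 69. MiR-188-5p was closest to miR-1224-5p at 0.37 and to miR-689 at 0.33, and miR-202-3p was closest to miR-494-3p at 0.43, to miR-690 at 0.28 and to miR-714 at 0.51. The closest to miR-720 was miR-193a-3p at 0.12. MiR-709, a neighbour of miR-714 in registry number, was among the 3 closest to each of the 6. The mature sequences of the closest miRNAs are shown, from RefSeq (GRCm38.p6) with the seed in capitals, so that their seeds can be read against those of miR-1224-5p, miR-494-3p and miR-690 above.
miR-188-5p: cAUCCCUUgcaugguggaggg
miR-202-3p: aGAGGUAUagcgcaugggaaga
miR-193a-3p: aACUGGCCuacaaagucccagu
MiR-188-5p lies at chrX:7248031-7248051 on the minus strand, miR-202-3p at chr7:139957695-139957716 on the minus strand and miR-193a-3p at chr11:79712009-79712030 on the plus strand. They were 38.1%, 40.9% and 18.2% G, and the GGG motif was in the first and second and not in miR-193a-3p.

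Several probes of an RNA gave its course more than once, though probes of an RNA share its sequence and are not replicates. MiR-1224-5p had 4 probes whose signals differed 23.9-fold to 27.8-fold between the brightest and the dimmest on the arrays where all were detected, and their lr-ECM 3D minus 2D replicates 1 and 3 log2 differences were -0.77 to -0.49. The 2 probes of miR-494-3p gave -0.88 and -0.83. The 2 probes of miR-689 gave -0.95 and -0.58. Within each of these RNAs the probes thus had the same sign.

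The 2 probes of miR-690 gave -0.63 and -0.62, and those of miR-720 gave 0.10 and 0.19. Between 2D replicates 3 and 1 the 2 probes of miR-720, in the same order, gave log2 differences of 0.07 and 0.44. Of the 4 probes of miR-714 only its brightest was detected on the 5 arrays, so its course rests on 1 probe. The replicate spots of the brightest probe, where detected, had a median coefficient of variation of 7.90% over 33 values, against 7.70% over 270 values of the 45 other miRNAs detected on all 6 arrays. Spots of an array thus varied about as much for the 6 RNAs as for other miRNAs.

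For the comparison across all miRNAs, signals were scaled to the mean of the 2D arrays, floored at 1 and taken as log2. The mean scaled log2 signal of miR-720 in 2D was 12.59 ± 0.39, against 12.09 ± 0.06 in lr-ECM 3D (both SD, n = 3). That of miR-1224-5p was 10.17 ± 1.10 and 9.58 ± 0.10, in the same order. That of miR-494-3p was 9.07 ± 0.91 and 8.21 ± 0.11. The 2D spread was larger than the lr-ECM 3D spread for each of these 3.

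MiR-689 had 7.11 ± 0.96, against 6.52 ± 0.14 in lr-ECM 3D. MiR-690 had 6.61 ± 1.38 and 6.25 ± 0.06. MiR-714 had 3.88 ± 3.36 and 4.26 ± 0.14, its 2D mean including 2D replicate 2 at the floor. The scaled log2 change, lr-ECM 3D minus 2D, was -0.50 ± 0.22 (SE) for miR-720, -0.58 ± 0.55 for miR-1224-5p, -0.86 ± 0.46 for miR-494-3p, -0.59 ± 0.49 for miR-689, -0.35 ± 0.68 for miR-690 and 0.39 ± 1.65 for miR-714. The groups did not overlap for miR-720 and overlapped for the other 5, and they did not overlap for 42.5% of all tested miRNAs. That share includes miRNAs that passed the detection filter through the lr-ECM 3D arrays alone, so it is not a like measure for the 6.

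These signs hold on the scale named. The 120 tested miRNAs had a median log2 change of -0.11 with scaling and of 1.24 without it. Without it, all 6 RNAs had changes above 0, from 0.50 (miR-494-3p) to 1.03 (miR-714). Relative to the median of the tested miRNAs, miR-494-3p had changes of -1.30 to -0.33 under every setting tried. MiR-1224-5p had such a change of -0.47 with scaling, which turned to 0.06 without 2D replicate 1. For miR-720 it was -0.39, which turned to 0.14 with normexp background correction. Quantile normalization gave miR-720 a value of 0.08 that was fixed in advance. It sets the brightest probe to the same signal on every array, so this value is only the median of the tested miRNAs, -0.08, with its sign reversed. MiR-689, at -0.48, turned to 0.77 with the total gene signal column. MiR-690, at -0.24, turned to 0.84 with that column, to 0.24 without 2D replicate 1 and to 0.05 without 2D replicate 3. MiR-714, at 0.50, turned to values from -1.51 (without 2D replicate 2) to -0.08 (75th percentile over all probes), and also did so without scaling, with normexp, with the total gene signal column, with the deposited values and with a floor of 10.

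With p-values adjusted by Benjamini-Hochberg over 120 miRNAs and a fold of at least 2, limma called 14 (11.7%) as different between conditions, of which 1 (0.833%) was lower in lr-ECM 3D, and 0 of the 6 RNAs were among them. At an unadjusted p under 0.05 in limma 29 (24.2%) passed with no fold limit and 22 (18.3%) with a fold of 2. The methods' t-test, unadjusted and with a fold of 2, passed 17 (14.2%). By each of these rules 0 of the 6 were among them. Where a fold of 2 was asked this follows from size alone, since the largest scaled log2 change of the 6 was -0.86 (miR-494-3p). Without 2D replicate 2 limma called 31 (25.8%), of which 5 (4.17%) were lower in lr-ECM 3D. These 5 were among the 6 RNAs, with scaled changes of -1.15 for miR-1224-5p, -1.34 for miR-494-3p, -1.09 for miR-689, -1.14 for miR-690 and -1.55 for miR-714, while miR-720 was not called and had -0.32. Since the RNAs were chosen on this contrast in the same arrays, these calls are no test of them and support nothing about them, and leaving out 1 array leaves 2 arrays in 2D.

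The 6 RNAs themselves enter the scaling factor. With the factor taken without their probes, which was then 1.22 in place of 1.04 for 2D replicate 1 and 0.387 in place of 0.447 for lr-ECM 3D replicate 1, 15 miRNAs were called and again 0 of the 6. With both changes made, 32 were called, of which 6 (5%) were lower, and the same 5 RNAs were among them.

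The relatives of the 6 on the array were mostly dim. Of 71 other miRNA arms of the Dlk1-Dio3 cluster around miR-494, 4 were detected on any array and 0 on any 2D array. The 2 that could be tested, miR-376c-3p and miR-485-3p, were both called higher in lr-ECM 3D by limma, but they passed the detection filter through the lr-ECM 3D arrays alone, which fixed the direction. The signal of miR-376c-3p was 1.64, 1.42 and 3.84 units in 2D and 599, 336.6 and 404 in lr-ECM 3D. MiR-494-3p, detected on all 6 arrays, was therefore measured in 2D where its neighbours were not. Its signal on the lr-ECM 3D arrays, 492 to 623 units, lay below 2D replicates 1 and 3 and above the 62.0 of 2D replicate 2.

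Of 3 other mirtron arms 1 was detected, miR-877-3p, on the 3 lr-ECM 3D arrays alone, with -2.39, 4.67 and -1.23 units in 2D and 198, 132.96 and 148 in lr-ECM 3D. It too entered the tested miRNAs through the lr-ECM 3D arrays alone, so its tests are not read further. Limma called it without 2D replicate 2 and not over all arrays, while the methods' t-test, unadjusted, passed it over all arrays. MiR-1224-5p lay on the lr-ECM 3D arrays below 2D replicates 1 and 3 and above the 119 units of 2D replicate 2. Of 40 other arms with registry numbers near those of miR-689, miR-690, miR-714 and miR-720, 8 were detected on any array and miR-709 alone on all 6, with 349, 87.1 and 513 units in 2D and 465, 389 and 387 in lr-ECM 3D. Of these 40, miR-680 and miR-709 were tested, and limma called 0 of the 2 over all arrays or without 2D replicate 2. MiR-709 had a scaled log2 change of -0.63 ± 0.16 (SE) with an adjusted p of 0.0547 in limma. Of the 2 it alone passed an unadjusted p under 0.05 in limma with no fold limit. The methods' t-test passed 0, but it was read with a fold of at least 2, which the change of miR-709 does not reach at any p.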

How the data were processed

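Small RNAs of LLC1 cells were measured on 1-colour Agilent mouse miRNA arrays, 3 from 2D and 3 from lr-ECM 3D culture, grouped by the sample labels. In the deposited scanner output each spot has a linear intensity. The authors obtained it with Agilent Feature Extraction 10.7.3.1 (per the submitters' processing notes and the file headers), which subtracted background and a spatial trend and normalized nothing between arrays. The same deposited files hold other columns, flags for detection, outliers and saturation. The deposited series table holds log2 values that the authors normalized, used here as an alternative. Its scale was found from the values: each column equalled the log2 of the floored intensities plus a constant for the array, within 0.049. No column belonged to samples outside the 6.

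Control spots and 190 to 369 outlier spots per array were left out, 0 spots were saturated, and spots of a probe were averaged. The methods scale samples to the mean of the controls, which was read as a factor for each array to the mean of the 2D array means over 1712 miRNA probes. This reading is uncertain, since the deposited log2 columns share an equal mean (1.79) on the 6 arrays, which such a factor does not give, and the scaled changes of 4 of the 6 RNAs turn in sign with those values. The factors were 1.04, 4.43 and 0.552 in 2D and 0.447, 0.575 and 0.589 in lr-ECM 3D. Values were floored at 1 and taken as log2, and a miRNA was read from its brightest probe. The 120 miRNAs detected on all 3 arrays of a condition were tested with limma 3.58.1 (R 4.3.3), using lmFit and a two-sided eBayes test, with calls at a Benjamini-Hochberg adjusted p under 0.05 and a fold of at least 2. The fit was tested on simulated data. Arrays have no counts, so the number of arrays limits the precision, and p-values measure only the spread between the samples the labels call replicates.

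The RNAs, the lists and the tests were chosen with earlier results of these data known. Also named were the 10 brightest other miRNAs, the 3 miRNAs whose log2 ratio to each RNA had the smallest SD, and detected members of the lists (Dlk1-Dio3 neighbours, mirtrons, registry numbers near the RNAs, cell type markers). Alternatives were 4 other scalings, a factor without the RNAs, normexp (offset 50), the total gene signal column, the mean over probes, the deposited values, a floor of 10, other detection filters, other reference sets, a replicate block, the methods' t-test and leaving out each array.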

Additional observations from a re-analysis of the deposited data

How the results depend on the processing

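Over all arrays limma called 14 miRNAs. It called 24 with the 75th percentile over all probes, 26 without scaling, 23 with quantile normalization, 26 with total gene signal, 26 with the deposited values, 32 with no detection filter and 0 with a filter on all 6 arrays, which tested 48 and where limma passed 7 at an unadjusted p under 0.05, 1 of the 6 RNAs among them, and 0 with a fold of 2 as well. Leaving out 1 array gave 12 to 31 calls and 0 to 5 of the 6 RNAs among them, the 5 without 2D replicate 2. An alternative added after the data were seen, without 2D replicate 2 and with the factor without the 6 RNAs, gave 32 calls and 5 RNAs. The scaled change turned in sign for miR-720 without scaling (0.86), with the deposited values (0.36) and under normexp (0.55), for miR-1224-5p under the same settings (0.77, 0.26 and 0.29), and for miR-494-3p without scaling (0.50). It turned for miR-689 without scaling (0.76), with total gene signal (1.43) and with the deposited values (0.28), and for miR-690 under the same settings (1.00, 1.499 and 0.62) and without 2D replicate 1 (0.13, in a range of -1.14 to 0.13 with 1 array left out). For miR-714 it turned with the 75th percentile over all probes (-0.0496), normexp (-0.40), total gene signal (-0.35), a floor of 10 (-0.72), without 2D replicate 2 (-1.55, in a range of -1.55 to 1.47) and with the added alternative (-1.80). The median difference of the 6 in log2 ratio to the reference, -0.27, ran from -1.04 to 0.31 with 1 array left out. The difference in summed share, -5.43 percentage points, was 1.11 with normexp, whose offset of 50 units weighs most on the dim 2D replicate 2. The same difference ran from -8.12 to -1.42 with 1 array left out. The median SD between the 6 ran from 0.24 to 0.85 with 1 array left out. The cause was not tested. Replicate numbers were not taken to pair arrays. Same-numbered 2D and lr-ECM 3D arrays had deviations correlated at -0.32, -0.37 and 0.16 over 120 miRNAs, and differently numbered ones at -0.32 to 0.35. With 3 arrays per condition these values cannot settle whether arrays were paired. A replicate block gave 12 calls and 0 of the 6 RNAs. It moved no scaled change, which the layout of 1 array of each number per condition fixes in advance.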
